A study of Mus musculus with 12 samples.

Results

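Aminoacyl-tRNA synthetases load each amino acid onto its transfer RNA. Their genes were taken from a list of 36, 20 for cytosolic enzymes and 16 for mitochondrial enzymes, by symbol in the array's gene table. Of these, 34 were measured (18 cytosolic and 16 mitochondrial) among 30176 genes in all. The probe set of *Aars*, the cytosolic alanine enzyme, is assigned to *Exosc6* as well and was not used, and *Dars*, the cytosolic aspartate enzyme, was not analysed here. *Mars*, the cytosolic methionine enzyme, is listed as *Mars1*. *Kars* and *Gars* are counted as cytosolic, but each of these genes is known to encode the enzyme of both compartments.

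RNA came from 3T3-L1 cells, a mouse preadipocyte line that stores lipid after induction with dexamethasone, IBMX and insulin. Cells transfected with 100 nM of an siRNA against the long non-coding RNA *Paral1* (Paral1-siRNA) were set against cells given a control siRNA (Ctrl-siRNA), and all groups received the inducers at D0. Transfection took place at D7 for the groups collected at D9 and at D0 for those collected at D2, so that each was collected 2 days after it. Experiments 4 to 6 (D9) and 1 to 3 (D2) each gave 1 Paral1-siRNA array and 1 Ctrl-siRNA array, 12 arrays in all (n = 3 per group). The labels name the reagent that the methods list as Paral1/2-siRNA, whereas the paper's text says that Paral1/1-siRNA was selected, and the knock-down was not checked, since *Paral1* itself was not analysed here.

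Cytosolic synthetases serve the ribosomes that translate nuclear mRNA. Several of them sit in a large multi-synthetase complex held together by the scaffold proteins *Aimp1*, *Aimp2* and *Eef1e1*, while others work alone or as dimers. Mitochondrial synthetases are also encoded in the nucleus, are imported, and serve the few membrane proteins of the respiratory chain that the organelle makes itself. Many cytosolic synthetase genes are targets of ATF4, the transcription factor of the amino acid response, whereas the mitochondrial enzymes are mostly not counted among them.

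Values are log2 levels, so a difference of 1 is a factor of 2. All 34 members had a mean over the 12 arrays above 5.78, the level of a filter on dim genes that 13574 genes passed. All 18 cytosolic members exceeded the brightest background probe set on every array, and so did 10 of the 16 mitochondrial members. The other 6 did so on 6 arrays (*Pars2*), 7 (*Ears2*) or 9 (*Aars2*, *Mars2*, *Sars2* and *Vars2*).

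Both arrays of experiment 1 stood apart from the other D2 arrays. In experiment 1, the 9 adipocyte markers had a median difference of -1.90 (Paral1-siRNA) and -3.14 (Ctrl-siRNA) from the mean of experiments 2 and 3, and the 4 markers of dividing cells one of -1.24 and -1.32. Both of its arrays lay below all 4 other D2 arrays for 7 cytosolic synthetases (38.9%) and 5 mitochondrial ones (31.3%), against 13.5% of all genes and 27.7% of genes above the dim filter. They lay above all 4 for 2 cytosolic (11.1%) and 4 mitochondrial members (25%), against 44.2% of all genes and 31.4% of genes above the dim filter. The log2 of the summed adipocyte markers ranged from 20.34 to 20.57 in Paral1-siRNA and from 20.24 to 20.64 in Ctrl-siRNA cells at D9, and from 11.44 to 15.51 in Paral1-siRNA and from 12.37 to 16.88 in Ctrl-siRNA cells at D2. Of 4 endothelial markers none, and of 6 macrophage markers 0 to 3, exceeded background on an array. In bulk RNA, fewer cells of a type and less RNA per cell cannot be told apart.

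The first comparison was that of Paral1-siRNA with Ctrl-siRNA at D2, early in differentiation. All 18 cytosolic synthetases had a lower mean with Paral1-siRNA, with a median difference of -0.48 and a range of -0.76 to -0.04. Among all genes, 13655 of 30176 (45.3%) were lower and the median was 0.02, and among genes above the dim filter 7245 of 13574 (53.4%) were lower and the median was -0.02. No single member passed limma's test with Benjamini-Hochberg adjustment over all genes (percent called 0, adjusted p = 1 for each). At an unadjusted p under 0.05, 4 cytosolic members and 0 mitochondrial members were lower. The background was 0.666% of all genes, and 170 of the 13574 genes above the dim filter. The methods' t-test, run unpaired, called 0 members after adjustment and 2 before it.

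The direction was shared by the experiments. In 15 of the 18 cytosolic members the Paral1-siRNA array was the lower one in all 3 pairs, against 14.6% of all genes and 22.5% of genes above the dim filter. The cytosolic median was -0.19 in experiment 1 (15 lower), -0.56 in experiment 2 (18 lower) and -0.68 in experiment 3 (18 lower). Without experiment 1 it was -0.58. With the experiment as a block, 14 cytosolic members and 1 mitochondrial member had an unadjusted p under 0.05 and a lower value. The background was 5.99% of all genes, and 1579 of the 13574 genes above the dim filter. After adjustment 0 members passed (lowest adjusted p = 0.340).

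*Eprs*, the joint glutamate and proline enzyme of the multi-synthetase complex, had levels of 9.59, 12.81 and 11.84 in Paral1-siRNA cells of experiments 1, 2 and 3, against 10.28, 13.42 and 12.83 in Ctrl-siRNA cells. The spread between experiments was larger than that between siRNAs, and the groups overlapped, but the Paral1-siRNA array was lower in every pair. Its difference was -0.76 with an SE of 1.09, and with the experiment as a block the SE was 0.11 (adjusted p = 0.340). Leaving out the Paral1-siRNA array of experiment 1 turned the difference to 0.15. Leaving out the Ctrl-siRNA array of that experiment gave -1.71, and these were the range over the 6 arrays. Such a fit leaves an array of experiment 1 without its pair, so the gap between experiments enters the difference. With both arrays of experiment 1 left out the difference was -0.80.

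*Gars*, the glycine enzyme, read 13.53, 14.45 and 13.47 in Paral1-siRNA cells against 13.65, 15.42 and 14.45 in Ctrl-siRNA cells, a difference of -0.69 (SE 0.49). The pair of experiment 1 was nearly level (-0.12), and those of experiments 2 and 3 differed by -0.96 and -0.97. *Mars1*, the methionine enzyme, which also loads the initiator tRNA, read 9.47, 9.59 and 9.13 in Paral1-siRNA cells against 9.65, 10.44 and 9.93 in Ctrl-siRNA cells. All Paral1-siRNA values lay below all Ctrl-siRNA values, and the difference was -0.62 (SE 0.24). *Nars*, the asparagine enzyme, had 9.94, 11.63 and 10.67 in Paral1-siRNA cells against 10.43, 11.91 and 11.74 in Ctrl-siRNA cells, a difference of -0.61 (SE 0.55) in overlapping groups. None of the 4 passed the adjusted threshold, with limma adjusted p = 1 for each. Single arrays moved these differences: without the Ctrl-siRNA array of experiment 1 they were -1.11 (*Gars*) and -1.08 (*Nars*), without that of experiment 2 they were -0.23 (*Gars*), -0.34 (*Nars*) and -0.40 (*Mars1*). *Nars* was at -0.21 when the Paral1-siRNA array of experiment 1 was dropped and at -1.05 when that of experiment 2 was. All 3 stayed below 0 in each such fit. Without both arrays of experiment 1, which leaves the other pairs whole, they were -0.97 (*Gars*), -0.67 (*Nars*) and -0.83 (*Mars1*).

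**Figure D1:**
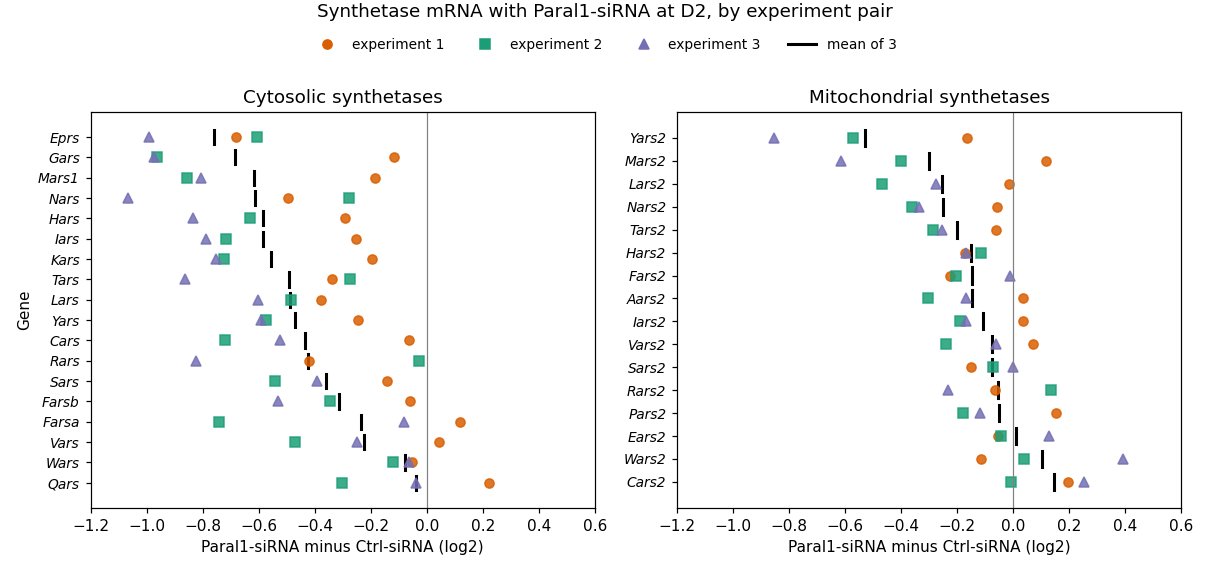
Difference between the Paral1-siRNA and the Ctrl-siRNA array of each experiment at D2 (x axis, log2; points by experiment, black bar the mean of 3) for the 18 cytosolic and 16 mitochondrial synthetases. Cytosolic means lie between -0.76 and -0.04, and mitochondrial means between -0.53 and 0.15.

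Of the remaining cytosolic members, *Kars*, the lysine enzyme, and *Yars*, the tyrosine enzyme, also had groups that did not overlap. With *Mars1* these are 3 members, against 2.12% of all genes and 424 of the 13574 above the dim filter. *Kars* and *Yars* were singled out after their values were seen. *Kars* read 11.83, 11.75 and 11.41 in Paral1-siRNA cells against 12.03, 12.47 and 12.16 in Ctrl-siRNA cells. *Yars* read 8.51, 8.62 and 8.30 in Paral1-siRNA cells against 8.76, 9.19 and 8.89 in Ctrl-siRNA cells. A factor of at least 1.5 separated the means of 6 cytosolic members (*Eprs*, *Gars*, *Mars1*, *Nars*, *Hars* and *Iars*) and of 0 mitochondrial ones. Of all genes 1.26% were lower by as much, and of the 13574 above the dim filter 363 were.

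The 7 measured enzymes of the multi-synthetase complex and the 11 outside it had medians of -0.56 and -0.43. In experiments 1, 2 and 3 the medians were -0.25, -0.60 and -0.79 in the complex, against -0.12, -0.54 and -0.53 outside it, a difference that was not tested. The complex also held the smallest cytosolic difference, that of *Qars*, the glutamine enzyme (-0.04, SE 0.32). Its pairs differed by 0.22, -0.30 and -0.04. The 3 scaffold genes *Aimp1*, *Aimp2* and *Eef1e1* had a median of -0.20. Split by the fold of their catalytic domain, the 19 class I enzymes and the 15 class II enzymes of both compartments shared a median of -0.25. *Eprs*, which joins a glutamate and a proline enzyme, was counted in class I only.

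Of the mitochondrial synthetases, 13 of 16 had a lower mean with Paral1-siRNA, with a median of -0.13 and a range of -0.53 to 0.15. *Ears2*, at 0.01, turned lower when each array's median was subtracted and under quantile normalization. In 7 of the 16 the Paral1-siRNA array was lower in all 3 pairs, and in 0 were the groups apart. The share lower in all 3 pairs was 14.6% of all genes and 22.5% of genes above the dim filter. Groups were apart downward in 2.12% of all genes. The median of the pairs was -0.06, -0.20 and -0.17 in experiments 1, 2 and 3, and -0.15 without experiment 1.

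*Yars2*, the mitochondrial tyrosine enzyme, had levels of 7.38, 7.96 and 7.59 in Paral1-siRNA cells against 7.55, 8.54 and 8.45 in Ctrl-siRNA cells, a difference of -0.53 (SE 0.30). It was the only mitochondrial member whose difference reached the cytosolic median, and its groups overlapped through the low Ctrl-siRNA array of experiment 1. *Lars2*, the leucine enzyme, read 7.52, 7.75 and 7.51 in Paral1-siRNA cells against 7.53, 8.22 and 7.79 in Ctrl-siRNA cells (difference -0.25, SE 0.20). *Nars2*, the asparagine enzyme, read 7.34, 7.64 and 7.59 in Paral1-siRNA cells against 7.40, 8.0 and 7.92 in Ctrl-siRNA cells (difference -0.25, SE 0.20). *Tars2*, the threonine enzyme, read 7.73, 7.48 and 7.37 in Paral1-siRNA cells against 7.79, 7.77 and 7.62 in Ctrl-siRNA cells (difference -0.20, SE 0.14). In these 3 genes the groups overlapped too, and the limma adjusted p was 1 for each. With 1 array left out the differences ran from -0.84 to -0.35 (*Yars2*), -0.41 to -0.066 (*Lars2*) and -0.44 to -0.14 (*Nars2*), each lowest without the Ctrl-siRNA array of experiment 1 and nearest 0 without that of experiment 2, and from -0.30 without the Paral1-siRNA array of experiment 1 to -0.12 without that of experiment 3 (*Tars2*).

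For 12 amino acids both a cytosolic and a mitochondrial enzyme with a gene of its own were measured, which sets the compartments side by side for the same substrate. At D2 the difference between siRNAs was lower for the cytosolic enzyme in 11 of 12, with a median of -0.30 for cytosolic minus mitochondrial. The count was 10, 10 and 11 of 12 in experiments 1, 2 and 3. The widest gap was at cysteine (*Cars* -0.43, *Cars2* 0.15), and tyrosine was the exception (*Yars* -0.47, *Yars2* -0.53). These gaps are a description of the 12 amino acids, with no test. For each amino acid the cytosolic enzyme also had the higher mean level over the 12 arrays, such as 12.06 for *Sars* and 6.55 for *Sars2*. At cysteine the levels were closer, at 8.67 and 8.12. *Mars2*, *Sars2* and *Vars2* exceeded the brightest background probe set on only 9 arrays, and differences near background are compressed. The part of level in the gaps was not tested, at D2, D9 or between days.

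**Figure D2:**
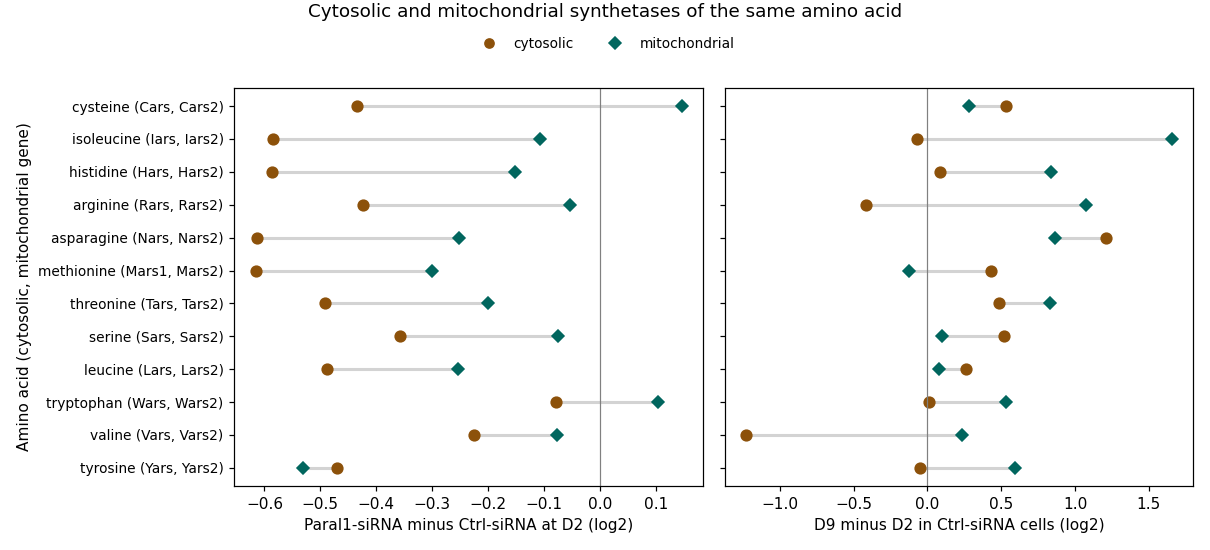
Log2 difference of the cytosolic (circles) and mitochondrial (diamonds) synthetase of the same amino acid, for Paral1-siRNA minus Ctrl-siRNA at D2 (left) and for D9 minus D2 in Ctrl-siRNA cells (right). The cytosolic point lies to the left of its partner in 11 of 12 amino acids on the left and in 7 of 12 on the right.

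Other genes of tRNA charging and its use gave a mixed picture at D2. The 12 genes of an ATF4 response list, such as *Asns*, which makes asparagine, and *Phgdh*, which opens serine synthesis, all had lower means with Paral1-siRNA (median -0.35, *Phgdh* -0.83), and 8 were lower in all 3 pairs. The 12 cytosolic synthetases of an ATF4-responsive list had a median of -0.49, and the 6 others one of -0.37. All 4 mitochondrial elongation factors were lower in all 3 pairs (median -0.45, with *Gfm1* at -0.73 and *Tufm* at -0.69). Beside these counts, 14.6% of all genes and 22.5% of genes above the dim filter were lower in all 3 pairs. The 4 cytosolic elongation factors measured had a median of 0.11, but *Eef1a1* read 19.57 on 4 of the 6 D2 arrays, identical values near the top of the scale that cannot show a difference, and the median of the other 3 was 0.22. Medians were -0.39 for the 3 subunits of the mitochondrial amidotransferase, which makes glutaminyl-tRNA, -0.14 for 12 genes of RNA polymerase III, which transcribes tRNA, -0.14 for 7 genes of tRNA maturation and export, -0.13 for 8 of mitochondrial tRNA maturation and -0.02 for 3 of tRNA editing. No gene of these lists passed the limma test at D2, as for all genes.

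At D2 all 9 adipocyte markers had lower means with Paral1-siRNA (median -1.56), with pair medians of -0.76, -1.22 and -2.87 in experiments 1, 2 and 3. The cytosolic synthetases differed in that order as well. The mitochondrial ones (-0.06, -0.20 and -0.17) and the ATF4 response list (-0.20, -0.48 and -0.30) did not. The 4 markers of dividing cells had a median of -0.37, and the 4 preadipocyte markers one of -0.09. The part of these in the synthetase differences was not tested.

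Promoter windows were read for the members because the cytosolic genes shared a direction at D2. RefSeq windows (GRCm38.p6, 250 bases before to 50 after the start) were on hand for 25 of the 34 members, 11 cytosolic and 14 mitochondrial. The C/EBP-ATF response element, the motif that ATF4 dimers bind, was searched as TGATGNAA on both strands. It occurred in the windows of 4 of 11 cytosolic members (*Gars*, *Tars*, *Iars* and *Yars*) and of 0 of 14 mitochondrial ones, against 4.51% of the 27025 genes with a window (3.97% of 32851 windows). The windows of these 4 and, for contrast, of *Eprs*, which had the largest difference at D2 and no match, are shown from 50 bases before the first transcribed base to 20 bases into the transcript, 5′ to 3′ on the gene's strand, with the motif in capitals.
Gars, chr6:55037951-55038020 (+): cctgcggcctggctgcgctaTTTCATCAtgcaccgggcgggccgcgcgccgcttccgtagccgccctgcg
Tars, chr15:11399639-11399708 (-): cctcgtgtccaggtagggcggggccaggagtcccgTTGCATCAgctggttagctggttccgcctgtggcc
Iars, chr13:49682080-49682149 (+): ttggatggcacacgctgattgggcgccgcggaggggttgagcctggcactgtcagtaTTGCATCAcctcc
Yars, chr4:129189853-129189922 (+): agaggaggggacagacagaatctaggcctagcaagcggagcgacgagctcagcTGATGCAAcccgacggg
Eprs, chr1:185362994-185363063 (+): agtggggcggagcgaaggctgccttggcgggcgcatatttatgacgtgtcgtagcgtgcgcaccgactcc

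Counted from the first transcribed base as 0, the motif began at -30 in *Gars*, -15 in *Tars*, 7 in *Iars* and 3 in *Yars*. The first 3 carry it on the opposite strand, and *Yars* on the strand of the gene. Their D2 differences were -0.69, -0.49, -0.59 and -0.47, inside the range of the cytosolic members without a match. Of 6 other motifs, the NRF1 motif GCGCNTGCG occurred in 6 cytosolic members (*Farsa*, *Farsb*, *Gars*, *Kars*, *Mars1* and *Tars*) and 4 mitochondrial ones (*Iars2*, *Mars2*, *Vars2* and *Wars2*), against 7.12% of genes. The YY1 motif AAGATGGCG was in 1 cytosolic member (*Farsa*) and 3 mitochondrial ones (*Aars2*, *Wars2* and *Yars2*), against 1.64%. In cytosolic and mitochondrial members, the E-box CACGTG counted 3 and 1 (8.09% of genes), the ETS motif CCGGAAG 5 and 4 (9.93%), CCAAT 6 and 6 (41.1%) and GGGCGG 7 and 11 (38.2%). A match is a run of letters in the window, and says nothing of whether a factor binds there.

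The second comparison set Paral1-siRNA against Ctrl-siRNA at D9, in cells transfected after differentiation. Again no gene passed the limma test (percent called 0). At an unadjusted p under 0.05 there were 0 members (background 1.11% lower and 1.46% higher), and the methods' t-test called 0 after adjustment and 1 before it. Of the cytosolic members 15 of 18 had a lower mean with Paral1-siRNA (median -0.16), and of the mitochondrial members 15 of 16 (median -0.06). Of the genes above the dim filter, 64.4% were lower too (median -0.05), and of all genes 45.5% (median 0.02). The Paral1-siRNA array was lower in all 3 pairs for 11 cytosolic and 5 mitochondrial members, against 13% of all genes and 22.2% of those above the dim filter.

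The experiments differed at D9. The cytosolic median was -0.26, -0.13 and -0.07 in experiments 4, 5 and 6, and the mitochondrial median -0.17, -0.10 and 0.05. When the Paral1-siRNA array of experiment 4 was left out, the cytosolic median was -0.066. Leaving out that of experiment 6 gave a mitochondrial median of -0.18, and leaving out that of experiment 5 one of -0.025. Quantile normalization gave medians of -0.08 and -0.01 and turned the sign of *Farsb*, *Fars2*, *Lars2*, *Nars2* and *Vars2*. Subtracting each array's median turned that of *Kars* and *Vars*.

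*Hars*, the histidine enzyme, had levels of 9.42, 9.98 and 10.12 in Paral1-siRNA cells of experiments 4, 5 and 6, against 10.14, 10.20 and 10.22 in Ctrl-siRNA cells, a difference of -0.34 (SE 0.19, adjusted p = 1.00 by limma). The groups did not overlap, and the array of experiment 4 was the low one. *Lars* and *Nars* were the other members whose groups did not overlap. So 3 cytosolic members and 0 mitochondrial ones were separated downward, against 2.5% of all genes and 505 of the 13574 above the dim filter. *Eprs* read 13.37, 13.80 and 13.50 in Paral1-siRNA cells against 13.83, 13.84 and 13.77 in Ctrl-siRNA cells, a difference of -0.26 (SE 0.13) with overlap at experiment 5.

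*Yars2* again had the largest mitochondrial difference, with 8.26, 8.49 and 8.67 in Paral1-siRNA cells against 8.79, 8.62 and 8.89 in Ctrl-siRNA cells (-0.29, SE 0.14). *Hars2*, the mitochondrial histidine enzyme, read 8.20, 8.20 and 8.65 in Paral1-siRNA cells against 8.54, 8.30 and 8.71 in Ctrl-siRNA cells (-0.17, SE 0.17). In both genes the groups overlapped, and the Paral1-siRNA array was the lower of each pair. When the Paral1-siRNA array of experiment 4 was dropped, the D9 differences were -0.14 (*Hars*), -0.16 (*Eprs*), -0.19 (*Yars2*) and -0.095 (*Hars2*), and *Hars2* was at -0.072 without the Ctrl-siRNA array of experiment 6. *Wars2*, the tryptophan enzyme, was the 1 member with a higher Paral1-siRNA array in all 3 pairs (difference 0.10, SE 0.11). The background was 16.5% of all genes, and 1271 of the 13574 genes above the dim filter. With the experiment as a block, *Hars* and *Yars2* were lower at an unadjusted p under 0.05, and the lowest adjusted p was 0.709. The background was 3.69% of all genes, and 904 of the 13574 genes above the dim filter. Among the 34 members these 2 are no excess over the second share.

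**Figure D3:**
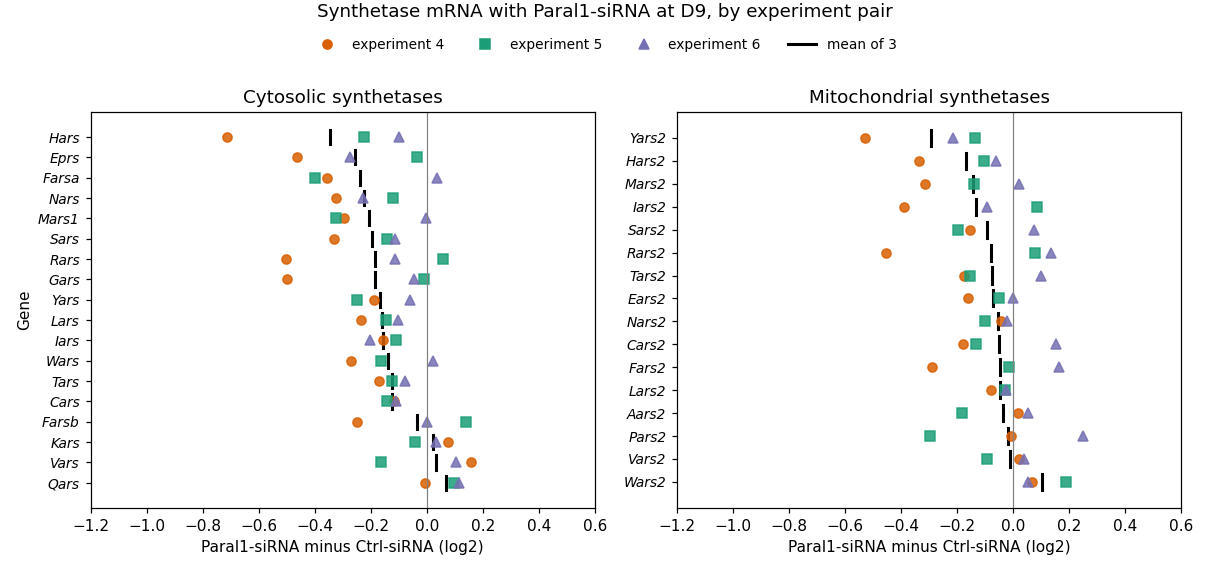
Difference between the Paral1-siRNA and the Ctrl-siRNA array of each experiment at D9 (x axis, log2, on the scale used for D2; points by experiment, black bar the mean of 3). Cytosolic means lie between -0.34 and 0.07 and mitochondrial means between -0.29 and 0.10, and most of the lowest points are those of experiment 4.

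For the same substrate the cytosolic difference was below the mitochondrial one in 10 of 12 amino acids at D9, with a median of -0.09 for cytosolic minus mitochondrial, and in 6, 10 and 10 of 12 in experiments 4, 5 and 6. Adipocyte markers at D9 had a median of -0.06 (6 of 9 lower). The ATF4 response list had a median of -0.16 (11 of 12 lower). The difference in siRNA effect between days, D9 minus D2, had a median of 0.31 over the cytosolic and 0.05 over the mitochondrial members. It was positive, so less negative at D9, for 16 of 18 cytosolic and 9 of 16 mitochondrial members, against 52% of all genes and 45% of genes above the dim filter. Under quantile normalization it was positive for 17 cytosolic and 14 mitochondrial members. No gene passed limma's test of this difference (percent called 0). In it 1 member had an unadjusted p under 0.05 (background 0.53% higher), which was *Kars* (0.58, SE 0.23, adjusted p = 1.00). With the experiment as a block, 4 cytosolic members (*Eprs*, *Iars*, *Kars* and *Lars*) and 0 mitochondrial ones were higher at an unadjusted p under 0.05. The background was 1050 of the 30176 genes and 602 of the 13574 above the dim filter. After adjustment 0 members passed (lowest limma adjusted p = 0.577). With 1 array left out the cytosolic median ran from 0.077 without the D2 Ctrl-siRNA array of experiment 2 to 0.59 without that of experiment 1, and it was 0.50 without the D2 Paral1-siRNA array of experiment 2 and 0.21 without that of experiment 1.

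The third comparison followed differentiation itself, with D9 set against D2 in cells of the same siRNA. Mitochondrial synthetases were higher at D9 or did not pass the test, while cytosolic ones went both ways. In Paral1-siRNA cells 8 of 16 mitochondrial members rose and 0 fell (median 0.41), and 5 of 18 cytosolic members rose and 2 fell (median 0.34). The background was 14.5% of all genes higher and 25.2% lower, or 24.7% and 22.7% of genes above the dim filter. In Ctrl-siRNA cells 8 mitochondrial members rose and 0 fell (median 0.43), and 2 cytosolic members rose and 3 fell (median 0.05), beside 14.9% of all genes higher and 26.1% lower, or 25.5% and 21.2% of genes above the dim filter. In Ctrl-siRNA cells the days did not overlap for 11 mitochondrial members, all higher at D9. They did not overlap for 8 cytosolic members either, 4 higher and 4 lower. The background was 18.4% of all genes higher and 35.8% lower. Of the 13574 genes above the dim filter, 4137 were higher and 3450 lower. The median over all genes was -0.16 in Paral1-siRNA and -0.19 in Ctrl-siRNA cells.

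These directions depend in part on scaling. Subtracting each array's median moved the all-gene median by 0.12 in both siRNAs, and quantile normalization by 0.11 in Paral1-siRNA and 0.14 in Ctrl-siRNA cells. In Ctrl-siRNA cells the first turned the sign of *Farsb*, *Iars*, *Yars* and *Aars2*, and the second that of *Hars*, *Lars*, *Wars* and *Lars2*, none of which had passed the test. The cytosolic median ran from -0.22 to 0.17 under these scalings, and was -0.13 without experiment 1, so it has no settled sign. Under quantile normalization 13 members passed in Ctrl-siRNA cells, 5 of them lower, where 3 of 13 were lower on the deposited values. D2 and D9 came from separate experiments, so day and experiment cannot be told apart.

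*Iars2*, the mitochondrial isoleucine enzyme, had levels of 10.31, 10.36 and 10.71 at D9 against 8.18, 9.13 and 9.17 at D2 in Paral1-siRNA cells, a rise of 1.63 (SE 0.35, limma adjusted p = 0.00432). In Ctrl-siRNA cells it read 10.70, 10.27 and 10.80 at D9 against 8.14, 9.32 and 9.34 at D2, a rise of 1.66 (SE 0.35, limma adjusted p = 0.00392). The days did not overlap in either siRNA, and the arrays of experiment 1 were the lowest.

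*Fars2*, the mitochondrial phenylalanine enzyme, rose by 1.63 in Paral1-siRNA cells. In Ctrl-siRNA cells it read 8.93, 8.95 and 9.35 at D9 against 7.60, 7.66 and 7.37 at D2 (1.53, SE 0.20, limma adjusted p = 0.000254), and its D2 values were tightly grouped, experiment 1 included. *Rars2*, the arginine enzyme, read 10.13, 9.59 and 9.78 at D9 against 8.26, 9.07 and 8.96 at D2 in Ctrl-siRNA cells (1.07, SE 0.27, limma adjusted p = 0.0105). Its cytosolic counterpart *Rars* had a difference of -0.41 (SE 0.49).

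The other mitochondrial members that rose in both siRNAs were *Nars2* (0.86 in Ctrl-siRNA cells), *Hars2* (0.84), *Tars2* (0.83) and *Wars2* (0.53), each of which kept its call when any 1 array was left out. *Ears2*, the glutamate enzyme, rose by 0.33 in Ctrl-siRNA cells (limma adjusted p = 0.0472), above background on only 7 arrays, and of 6 fits that left out an array its call held only in that without the D9 array of experiment 6 (adjusted p = 0.174 without the D9 array of experiment 4). *Yars2* rose by 0.83 in Paral1-siRNA cells (limma adjusted p = 0.0236). This call held in 2 of 6 such fits, and was lost without the D2 array of experiment 1 or 3 or the D9 array of experiment 5 or 6 (adjusted p = 0.0844 without the last). Those that did not pass in either siRNA were *Aars2*, *Cars2*, *Lars2*, *Mars2*, *Pars2*, *Sars2* and *Vars2*, with Ctrl-siRNA differences of -0.13 to 0.28. Of these 7, all but *Cars2* and *Lars2* are among the 6 that were not above background on every array.

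**Figure D4:**
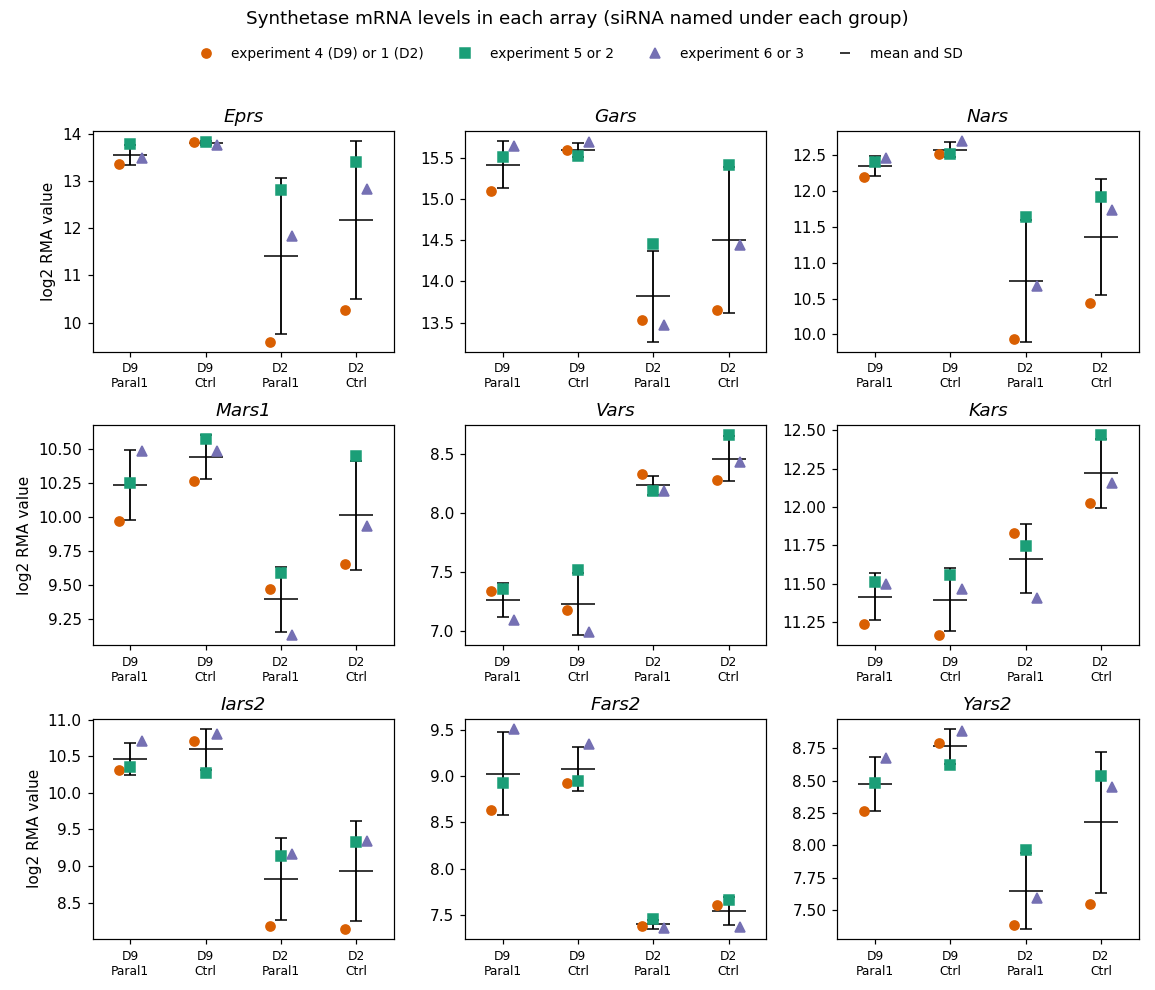
Log2 RMA level of 9 synthetases in each of the 12 arrays, by group (D9 left, D2 right, Paral1-siRNA left of Ctrl-siRNA), with the mean and SD of the 3 arrays and the experiment as symbol. *Iars2* and *Fars2* are higher and *Vars* is lower at D9 with no overlap of the days, and in *Eprs* the arrays of experiment 1 lie near 10 at D2.

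Among cytosolic members, *Vars*, the valine enzyme, fell. It fell by 0.97 in Paral1-siRNA cells, and in Ctrl-siRNA cells it read 7.18, 7.52 and 6.99 at D9 against 8.28, 8.66 and 8.43 at D2 (-1.23, SE 0.15, limma adjusted p = 0.000154). Its days were apart in both siRNAs, and the call held without any 1 array.

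*Nars* and *Gars* both rose by 1.60 in Paral1-siRNA cells (limma adjusted p = 0.0136 for *Nars* and 0.00900 for *Gars*), and kept their calls in all 6 fits that left out 1 array. *Nars* read 12.51, 12.52 and 12.69 at D9 against 10.43, 11.91 and 11.74 at D2 in Ctrl-siRNA cells (1.21, SE 0.43, limma adjusted p = 0.0441), and *Gars* read 15.60, 15.52 and 15.69 at D9 against 13.65, 15.42 and 14.45 at D2 (1.10, SE 0.39, limma adjusted p = 0.0464). In Ctrl-siRNA cells *Nars* kept its call in 2 of 6 such fits, those without the D2 array of experiment 2 or 3, and *Gars* in 1, that without the D2 array of experiment 2. Without the D2 array of experiment 1 the differences were 0.75 (adjusted p = 0.155) and 0.67 (adjusted p = 0.163).

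*Kars* and *Farsa* were the other cytosolic members that fell in Ctrl-siRNA cells. The difference of *Kars* was -0.25 in Paral1-siRNA cells (SE 0.17, limma adjusted p = 0.257). In Ctrl-siRNA cells it read 11.16, 11.55 and 11.46 at D9 against 12.03, 12.47 and 12.16 at D2 (-0.83, SE 0.17, limma adjusted p = 0.00291), a call that held without any 1 array, but the test of the difference between siRNAs did not pass (limma adjusted p = 1.00). *Farsa*, a subunit of the phenylalanine enzyme, fell by 0.89 in Paral1-siRNA cells and by 0.88 in Ctrl-siRNA cells. Its call was lost without the D9 array of experiment 4 in either siRNA (adjusted p = 0.0574 in Paral1-siRNA and 0.0590 in Ctrl-siRNA cells), and in Paral1-siRNA cells also without the D2 array of experiment 1. The partner subunit *Farsb* had a difference of -0.11 (SE 0.28) in Ctrl-siRNA cells.

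Cytosolic members that rose in Paral1-siRNA cells alone were *Cars*, the cysteine enzyme (0.85, limma adjusted p = 0.0121), *Mars1* (0.84, limma adjusted p = 0.0104) and *Sars*, the serine enzyme (0.68, limma adjusted p = 0.0419). The Ctrl-siRNA differences of these 3 were 0.53, 0.43 and 0.52, and none differed between siRNAs by the limma test. The *Sars* call held in 2 of 6 fits, and was lost without the D2 array of experiment 2 or 3 or the D9 array of experiment 5 or 6 (limma adjusted p = 0.142 without that of experiment 5). In all, 15 members passed in Paral1-siRNA and 13 in Ctrl-siRNA cells, and 11 passed in both. The share of all genes that passed in both was not counted, so this overlap cannot be set against a background. Both comparisons use the same experiments, and the 2 arrays of an experiment deviated alike, so agreement between siRNAs is not independent.

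*Eprs* had the largest difference of all members in Paral1-siRNA cells, 2.14, and 1.64 in Ctrl-siRNA cells. Its days did not overlap in either, but the SE was 0.85 and the limma adjusted p 0.0669 and 0.144. The D2 array of experiment 1 differed from the mean of experiments 2 and 3 by -2.73 in Paral1-siRNA and by -2.85 in Ctrl-siRNA cells.

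**Figure D5:**
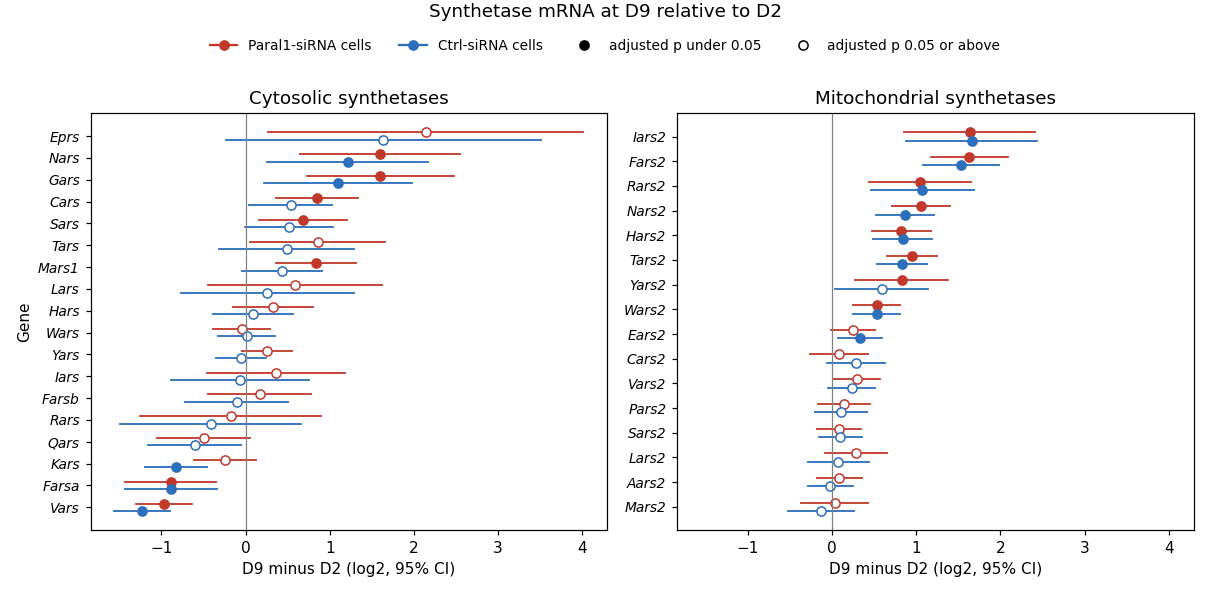
D9 minus D2 difference of each synthetase (x axis, log2, with its 95% confidence interval from limma) in Paral1-siRNA cells (red) and Ctrl-siRNA cells (blue), with filled points for an adjusted p under 0.05. Filled mitochondrial points all lie right of 0, and filled cytosolic points lie on both sides, with *Vars* and *Farsa* filled on the left in both siRNAs.

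Between days the compartments differed by amino acid. The cytosolic D9 minus D2 difference was below that of its mitochondrial partner for 7 of 12 amino acids in both siRNAs. The gaps were widest at isoleucine (*Iars* -0.07, *Iars2* 1.66 in Ctrl-siRNA cells), arginine and valine (*Vars* -1.23, *Vars2* 0.23), and ran the other way at methionine (*Mars1* 0.43, *Mars2* -0.13), serine, asparagine, cysteine and leucine.

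By the ATF4-responsive list, the 12 cytosolic synthetases on it had a median D9 minus D2 difference of 0.76 in Paral1-siRNA cells (5 rose, 1 fell) and 0.46 in Ctrl-siRNA cells (2 rose, 1 fell). The 6 others had one of -0.21 in Paral1-siRNA cells (0 rose, 1 fell) and -0.51 in Ctrl-siRNA cells (0 rose, 2 fell). These counts stand beside 14.5% of all genes higher and 25.2% lower in Paral1-siRNA cells, and 14.9% and 26.1% in Ctrl-siRNA cells. Of genes above the dim filter, 24.7% were higher and 22.7% lower in Paral1-siRNA cells, and 25.5% and 21.2% in Ctrl-siRNA cells. The D2 arrays of experiment 1 differed from the mean of experiments 2 and 3 by a median of -0.25 (Paral1-siRNA) and -0.92 (Ctrl-siRNA) for the 12, and of 0.06 and -0.44 for the 6 others. The difference between the 12 and the 6 was not tested, nor was the part of experiment 1 in it.

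Against the same shares of all genes, 7 of the 12 ATF4 response genes rose and 0 fell in Paral1-siRNA cells (median 0.98), and 6 rose and 2 fell in Ctrl-siRNA cells (median 0.87). In Ctrl-siRNA cells *Trib3*, a pseudokinase induced in the stress response, was at 3.55 and *Ddit3*, a stress-induced transcription factor, at 3.27, both called by limma, and *Shmt2* and *Mthfd2* of mitochondrial folate metabolism were the ones that fell. The 3 cytosolic elongation factors other than *Eef1a1* all fell, with a median of -1.73 in Paral1-siRNA and -1.76 in Ctrl-siRNA cells (*Eef2* -2.13 in both). *Eef1a1* had identical values near the top of the scale on 3 of 6 D9 arrays as well, and its difference is not given. The scaffold gene *Aimp2* fell by 0.88 in Paral1-siRNA and by 1.13 in Ctrl-siRNA cells. In mitochondrial tRNA maturation 4 of 8 genes rose and 1 fell in Paral1-siRNA cells (median 0.41), and 5 rose and 2 fell in Ctrl-siRNA cells (median 0.57). *Gatb* of the amidotransferase rose by 0.87 in Paral1-siRNA and by 0.81 in Ctrl-siRNA cells. Beside these, the 9 adipocyte markers had a median of 7.50 in Paral1-siRNA cells (9 rose) and 6.38 in Ctrl-siRNA cells (8 rose), and the 4 markers of dividing cells one of -2.92 in Paral1-siRNA cells (3 fell) and -3.71 in Ctrl-siRNA cells (4 fell). Their part in the synthetase differences was not tested.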

How the data were processed

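Total RNA from 12 samples was run on Affymetrix arrays (Mouse Transcriptome Array 1.0). The log2 values deposited by the authors were made by RMA, after corrections for GC count and signal space, and stand for transcript clusters. The labels name Affymetrix Expression Console 1.4.1 for this, whereas the paper's methods name another program for RMA. RMA levels are relative, so a change in total RNA per cell would not show in them. Precision is limited by how many arrays there are. The deposited log2 values were used without further scaling.

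Of 65956 transcript clusters, 30638 had 1 gene symbol and 2176 several. Only those with 1 symbol were used, and the brightest of them stood for a gene (354 genes had several), which left 30176 genes. No dim filter was applied in the main fits. Each siRNA comparison was fitted with limma 3.58.1 (R 4.3.3; lmFit and eBayes) on the 6 arrays of its day, and day comparisons and their interaction on all 12. Adjusted p-values are Benjamini-Hochberg over all genes, with a threshold of 0.05, and all tests were two-sided. Permutation of 3 against 3 arrays could not go below an exact p of 0.1, so none was run. The fit was tested on simulated data.

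Experiment numbers come from the labels. The 2 arrays of an experiment deviated alike from their group means. Over 13574 genes r was 0.87, 0.78, 0.71, 0.72, 0.80 and 0.83 for experiments 1 to 6. Arrays of unlike number gave -0.80 to 0.42, but deviations from a group mean cancel out within the group. The contrast with unlike numbers is therefore partly built in. The 2 arrays of an experiment were taken as pairs in the fits with a block. No source used here states that the arrays are separate cultures beyond that number, so a p-value covers only the spread seen between arrays, which may be technical. No 2 arrays held identical values.

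Named were, per class, the 4 largest differences at D2 and the 2 largest at D9 among members with 1 direction in all 3 pairs, the 3 largest that passed between days in Ctrl-siRNA cells, and up to 2 genes of each other list. *Kars*, *Yars*, *Qars*, *Wars2* and other genes given beyond these were chosen after their values were seen. Members and lists were chosen with earlier results of these data known. Promoter sequences are those of RefSeq (GRCm38.p6), and a motif was counted for a gene when any of its windows held it on either strand. Alternatives were the experiment as a block, other arrays in the fit, scalings, a dim filter and the mean of probe sets. Further ones were other variance models, array weights, an unpaired t-test and leaving out each array. Leaving out both arrays of an experiment was added after the data were seen.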

Additional observations from a re-analysis of the deposited data

How the results depend on the processing

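For both siRNA comparisons and their difference between days, 0 synthetases passed the adjusted threshold under every alternative run. At D2 the median stayed negative throughout, between -0.72 and -0.23 (cytosolic) and -0.18 and -0.08 (mitochondrial) when 1 array was left out. At D9 the corresponding ranges were -0.22 to -0.066 (-0.066 without the Paral1-siRNA array of experiment 4) and -0.18 to -0.025 (-0.18 without that of experiment 6). The cytosolic median of the difference between days ran from 0.077 (without the D2 Ctrl-siRNA array of experiment 2) to 0.59 (without that of experiment 1). *Eprs* at D2 ran from -1.71 to 0.15, and was 0.15 without the Paral1-siRNA array of experiment 1. Leaving out 1 array also breaks the pair of its experiment, and without both arrays of experiment 1 *Eprs* was at -0.80. Synthetases called between days numbered 13 to 16 in Paral1-siRNA and 9 to 15 in Ctrl-siRNA cells with 1 array left out. An unpaired t-test with Benjamini-Hochberg adjustment called 8 in each, against 15 (Paral1-siRNA) and 13 (Ctrl-siRNA) with limma. With the experiment as a replicate block the D2 median was -0.48 (cytosolic), which such a block cannot change, since each experiment holds 1 array per siRNA. The block changed no call for either siRNA comparison. The dim filter, which all members passed, the mean of probe sets, other variance models and the t-test could not move these medians either. Each member had only 1 probe set. As a random block the experiment gave 17 calls in Paral1-siRNA and 13 in Ctrl-siRNA cells between days. Members near or below the brightest background probe set have compressed differences on this scale.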
